A study of Mus musculus with 6 samples.

Results

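The spindle assembly checkpoint was examined through 9 genes, Bub1, Bub1b, Bub3, Mad1l1, Mad2l1, Ttk, Aurkb, Aurkc and Zw10. They were taken out of 11429 genes with a probe set of their own in the deposited values. A probe set is a group of short array probes read as 1 value, and every probe set that the array annotation assigned to exactly 1 of these symbols was kept. That gave 14 probe sets, with 1 for each of 5 genes, 2 for Bub1, Bub3 and Aurkb, and 3 for Bub1b.

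Mouse oocytes were compared before and after they completed maturation. The immature oocytes were fully grown, held their germinal vesicle (GV), the intact nucleus of prophase arrest, and came from large follicles of females primed with 5 IU of equine chorionic gonadotropin (eCG) for 44 to 46 h at an age of 22 to 24 days. They were stripped of cumulus cells with a narrow pipette and held in 5 µM milrinone, an inhibitor of the oocyte phosphodiesterase that keeps meiosis from resuming. The mature oocytes, arrested in metaphase II (MII), came from the oviducts of mice of the same age given eCG and then 5 IU of human chorionic gonadotropin (hCG), 14 h after hCG. Their cumulus mass was removed with hyaluronidase, and each had a visible first polar body. Each stage had 3 biological replicates, each a pool of 300 oocytes, and 10 ng of total RNA from each was amplified over 2 rounds and hybridised to 1 array. The labels name no mouse strain. Values are the deposited log2 expression values, and the small number of arrays limits their precision. Because each array received the same mass of RNA, less of a transcript per oocyte and a smaller share of the RNA cannot be told apart.

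The checkpoint holds back anaphase until every chromosome is attached to the spindle. The kinase TTK (MPS1) acts at unattached kinetochores and brings in BUB1 with BUB3, and then MAD1 with MAD2. MAD2, BUBR1 (the product of Bub1b), BUB3 and CDC20 form the mitotic checkpoint complex, which inhibits the anaphase promoting complex. ZW10 helps to hold MAD1 and MAD2 at kinetochores, and Aurora B and its germline relative Aurora C release faulty attachments. In the oocyte this machinery guards the separation of homologous chromosomes, and a fully grown oocyte makes little new RNA, so its messages are largely a stored pool.

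The checkpoint genes did not move as a block between GV and MII. All probe sets of Bub1, Bub3, Ttk and Zw10 fell, the 3 probe sets of Bub1b and the probe set of Mad2l1 were not called, and Mad1l1 and Aurkc rose by less than 1.5-fold. Bub1 was 12.4-fold lower in MII by its brighter and 2.52-fold lower by its dim probe set, which changed unequally, Ttk was 6.94-fold lower, Zw10 5.01-fold lower and Bub3 2.09-fold to 2.32-fold lower. The falls of these 4 genes were called under all 4 other scalings between arrays, while the rises of Mad1l1 and Aurkc were called in 2 of them and lost in the other 2. One scaling, equal poly-A controls, called 18380 of all 21646 probe sets lower, so a fall kept there shows little. A probe set was called where its limma p, adjusted by Benjamini-Hochberg over all 21646 tested probe sets, was under 0.05.

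Of the 14 probe sets 7 fell (50.0%), where 34.1% of all probe sets did, and 2 rose (14.3%), where 10.9% of all did. No overlap between the stages was seen for 10 of them (71.4%), against 54.0% of all probe sets. Taking only the brightest probe set of each gene, 4 of 9 genes fell (44.4%) and 2 rose (22.2%), beside 37.8% and 10.5% of all genes. The median log2 difference, MII minus GV, was -0.36 over the 14 probe sets and -0.15 over all probe sets, and with 1 probe set per gene it was -0.08 for the checkpoint genes and -0.20 for all genes. With so few probe sets these shares are a description only.

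**Figure D1:**
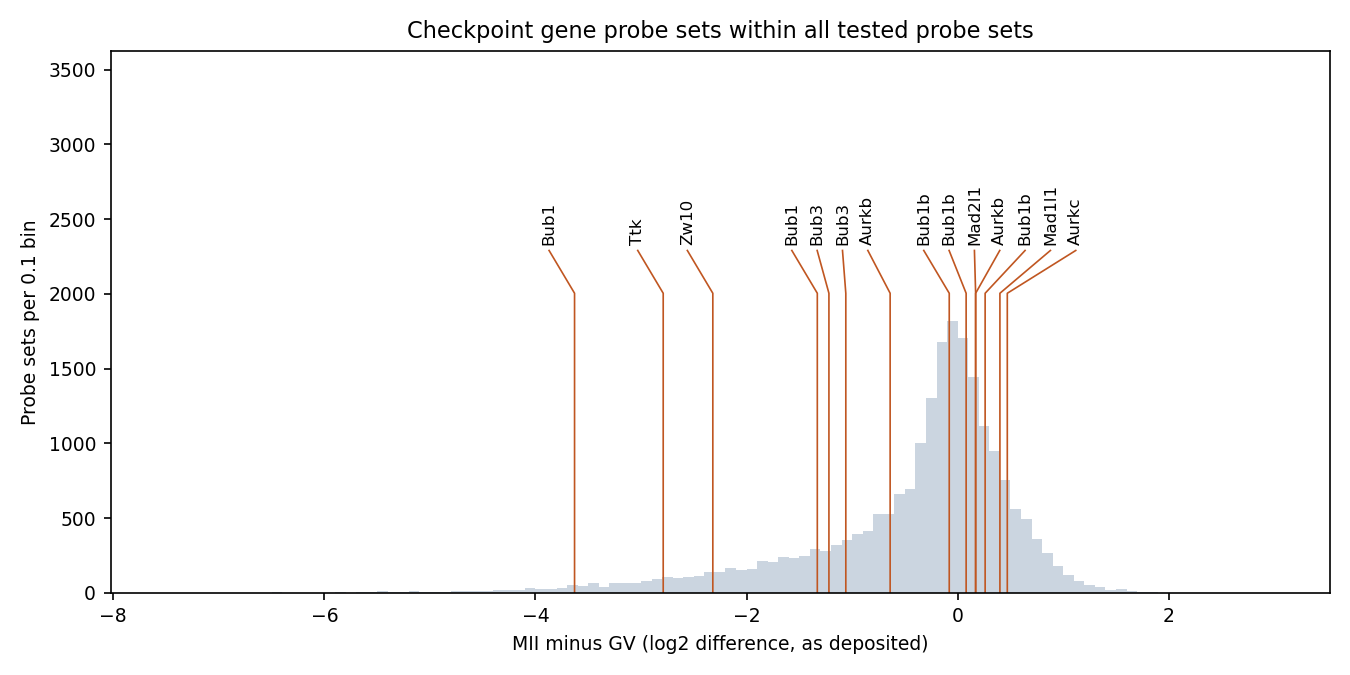
The histogram gives the log2 difference, MII minus GV, of all 21646 tested probe sets in bins of 0.1 (y axis, number of probe sets), and vertical lines mark the 14 checkpoint gene probe sets. Bub1, Ttk and Zw10 lie in the long lower tail, and 7 lines crowd near 0, several of which change sign with the scale between arrays.

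How the scale between arrays is set matters for small differences. As deposited, array medians were 6.10 to 6.12 in GV and 5.47 to 5.49 in MII. Making the medians equal moved the median difference of all probe sets by 0.62, quantile normalization by 0.34, equal hybridization controls by -0.40 and equal poly-A controls by -0.87. The lower and higher calls among the 14 probe sets were 6 and 7 with equal medians, 6 and 4 with quantile-normalized arrays, 7 and 0 with equal hybridization controls and 12 and 0 with equal poly-A controls (limma, Benjamini-Hochberg). In the last 2 cases 0 rises passed an unadjusted p under 0.05 as well. Over all probe sets, falls made up 75.8% of the calls as deposited, 26.4%, 38.9%, 98.6% and 99.6% in the same order. Of all 21646 probe sets, 4306 were lower and 12016 higher with equal medians, and 4794 and 7538 after quantile normalization. With equal hybridization controls these counts were 7179 and 104, and with equal poly-A controls 18380 and 65.

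**Figure D2:**
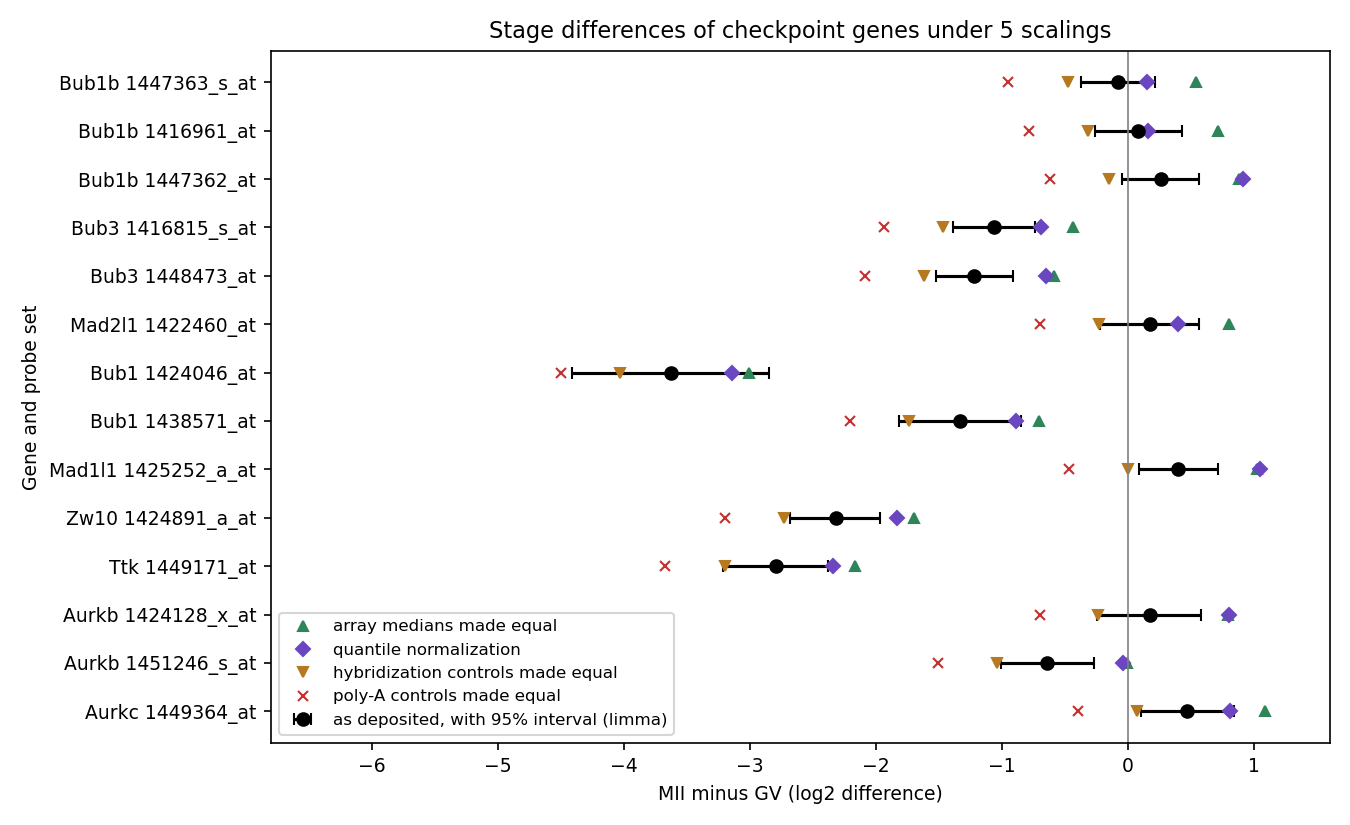
Points show the log2 difference, MII minus GV (x axis), of each checkpoint gene probe set (y axis), in black as deposited with its 95% interval from limma and in colour under 4 other scalings. Every probe set of Bub1, Bub3, Ttk and Zw10 stays below 0 throughout, as does the lower of the Aurkb probe sets, whereas the other 7 probe sets cross 0 between scalings.

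The labelled cell type was borne out by its markers. Of 7 oocyte genes (Zp3, Gdf9, Dazl, Ddx4, Mos, Oosp1, Nlrp5) 6 were above the array median on all 6 arrays, all but Ddx4. As deposited, 3 of these 7 were called lower, Zp3 (-2.76), Mos (-1.30) and Ddx4 (-1.01), and 4 were not called. Of 10 granulosa and cumulus genes 5 had a probe set of their own in the deposited values. Their mean log2 level was 5.44 to 5.57 in GV and 4.73 to 4.97 in MII, and 4 of them fell (Nr5a2, Inhba, Fshr, Fst). With equal medians only Inhba was still called lower, and Fshr and Fst were at 0.11 and 0.23. Only Nr5a2 was above the median on every array, and Fshr and Fst were below it on every array. All 4 measured genes of cumulus expansion (of 9 listed) were below the median on every array, at mean levels of 3.02 to 3.23 in GV and 3.10 to 3.22 in MII. These falls of follicle cell genes and of oocyte genes run alongside the falls of Bub1, Bub3, Ttk and Zw10. Any part of follicle cells in them was not tested.

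To let the genes that fell be set beside those that were not called, the 120 bases before the annotated start site are shown for Bub1, Bub3, Ttk and Zw10, which fell, and for Bub1b and Mad2l1, which were not called. The capitals mark CCAAT boxes, the motif bound by the factor NF-Y that is common before genes of the late cell cycle, in either orientation (CCAAT or ATTGG). The stretches, 5′ to 3′ on the strand of the gene in RefSeq's GRCm38.p6 table, are chr2:127831860-127831979 (minus strand) for Bub1, chr7:131560250-131560369 (plus) for the upstream start site of Bub3, chr9:83834569-83834688 (plus) for Ttk, chr9:49055461-49055580 (plus) for Zw10, chr2:118598091-118598210 (plus) for Bub1b and chr6:66535101-66535220 (plus) for Mad2l1.
Bub1: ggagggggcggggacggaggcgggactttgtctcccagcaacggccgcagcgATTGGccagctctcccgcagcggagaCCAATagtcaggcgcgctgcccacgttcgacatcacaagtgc
Bub3: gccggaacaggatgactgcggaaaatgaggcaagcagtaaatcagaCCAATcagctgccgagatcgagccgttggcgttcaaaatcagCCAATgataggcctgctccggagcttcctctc
Ttk: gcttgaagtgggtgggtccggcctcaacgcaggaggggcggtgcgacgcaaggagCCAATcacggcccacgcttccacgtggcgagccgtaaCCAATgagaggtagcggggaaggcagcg
Zw10: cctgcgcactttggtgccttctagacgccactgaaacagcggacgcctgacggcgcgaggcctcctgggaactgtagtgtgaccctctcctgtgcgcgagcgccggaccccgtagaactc
Bub1b: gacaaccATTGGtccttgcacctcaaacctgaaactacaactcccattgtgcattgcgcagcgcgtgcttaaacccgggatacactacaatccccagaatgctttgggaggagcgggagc
Mad2l1: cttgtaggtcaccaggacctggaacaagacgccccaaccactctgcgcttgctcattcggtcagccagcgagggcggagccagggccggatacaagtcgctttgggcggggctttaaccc
Bub1, Bub3 and Ttk each held 2 CCAAT boxes in this stretch, whereas Zw10, which also fell, held 0. Bub1b held 1 and Mad2l1 held 0. The boxes of Ttk ended 60 and 23 bases before the start site, those of Bub3 69 and 27 bases and those of Bub1 63 and 37 bases before it.

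Entries were found for 8 of the 9 genes (all but Aurkb), 10 in all, since Bub3 and Mad1l1 have 2 start sites each. In the full 250 bases before the start, 33.8% of the 32851 promoters in the table held at least 1 CCAAT box on either strand and 10.1% held 2 or more. Zw10 held 0 in that longer window too, as did Mad1l1 and Aurkc, which rose. TTTGAA, a form of the cell cycle homology region, was searched in the same way on both strands and was found once each in Bub3 and Zw10, without overlap with a CCAAT box. It was present in 16.0% of all promoters. The arrays measured stored RNA, and these matches are a description of the sequences alone.

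Among the 3 measured parts of the inhibitory complex treated as checkpoint genes, only Bub3 fell on the deposited scale (with equal poly-A controls Bub1b and Mad2l1 were called lower too). Bub3 encodes a WD-repeat protein that carries BUB1 and BUBR1 to the kinetochore. Its brighter probe set (1416815_s_at) read 10.12, 10.48 and 10.18 in the GV replicates and 9.13, 9.26 and 9.20 in the MII replicates. All MII values lay below all GV values, by more than the spread within either stage. The log2 difference was -1.06 ± 0.15 (SE, n = 3 per stage; limma, Benjamini-Hochberg adjusted p = 0.00018).

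The other Bub3 probe set (1448473_at), annotated to the same sequence accession, gave 8.79, 8.86 and 8.91 in GV and 7.71, 7.72 and 7.48 in MII, again without overlap. It differed by -1.22 ± 0.14 (limma, adjusted p = 3.9e-05). The gap between the 2 probe sets' changes, measured within arrays and so independent of a shift between them, was 0.15 ± 0.19 and was not called (adjusted p = 0.57 by limma over 12070 pairs of probe sets of the same gene, of which 40.8% were called). Across the other scalings the differences of the 2 probe sets ranged from -0.44 to -2.09, and both stayed called.

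Bub1b encodes BUBR1, the pseudokinase that with MAD2 blocks CDC20. Its brightest probe set (1447363_s_at) was at 12.70, 12.87 and 12.84 in GV and 12.65, 12.77 and 12.77 in MII, close to the top of the arrays' range of 13.3. The stages overlapped, with a difference of -0.08 ± 0.13 and a 95% interval of -0.37 to 0.21, which corresponds to 0.773-fold to 1.16-fold. A reading so near the ceiling can understate a change in either direction.

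A further Bub1b probe set (1416961_at) gave 11.86, 12.15 and 12.20 in GV and 11.99, 12.14 and 12.33 in MII. It too overlapped between stages, with a difference of 0.08 ± 0.15 and an interval of -0.26 to 0.43. The dimmest Bub1b probe set (1447362_at) read 6.86, 6.85 and 6.97 in GV and 7.06, 7.30 and 7.08 in MII, where the values did not overlap but the difference of 0.26 ± 0.14 missed the threshold (limma, adjusted p = 0.16). None of the 3 within-array comparisons among the Bub1b probe sets was called as deposited (limma, adjusted p from 0.16 to 0.52), although both that involve the dimmest were called after quantile normalization. With equal medians all 3 were called higher (0.54, 0.71 and 0.88), and with equal poly-A controls all 3 were called lower (-0.95, -0.79 and -0.62).

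Mad2l1 encodes MAD2, the protein that changes shape on MAD1 and then captures CDC20. Its probe set (1422460_at) was at 10.81, 11.28 and 11.25 in GV and 11.06, 11.34 and 11.46 in MII. The lowest value was that of GV replicate 1, and the stages overlapped. The difference was 0.17 ± 0.18, with an interval of -0.22 to 0.56 (0.859-fold to 1.48-fold), so a change of 1.5-fold or more lay outside the interval on the deposited scale. It was called higher with equal medians (0.80) and lower with equal poly-A controls (-0.70).

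**Figure D3:**
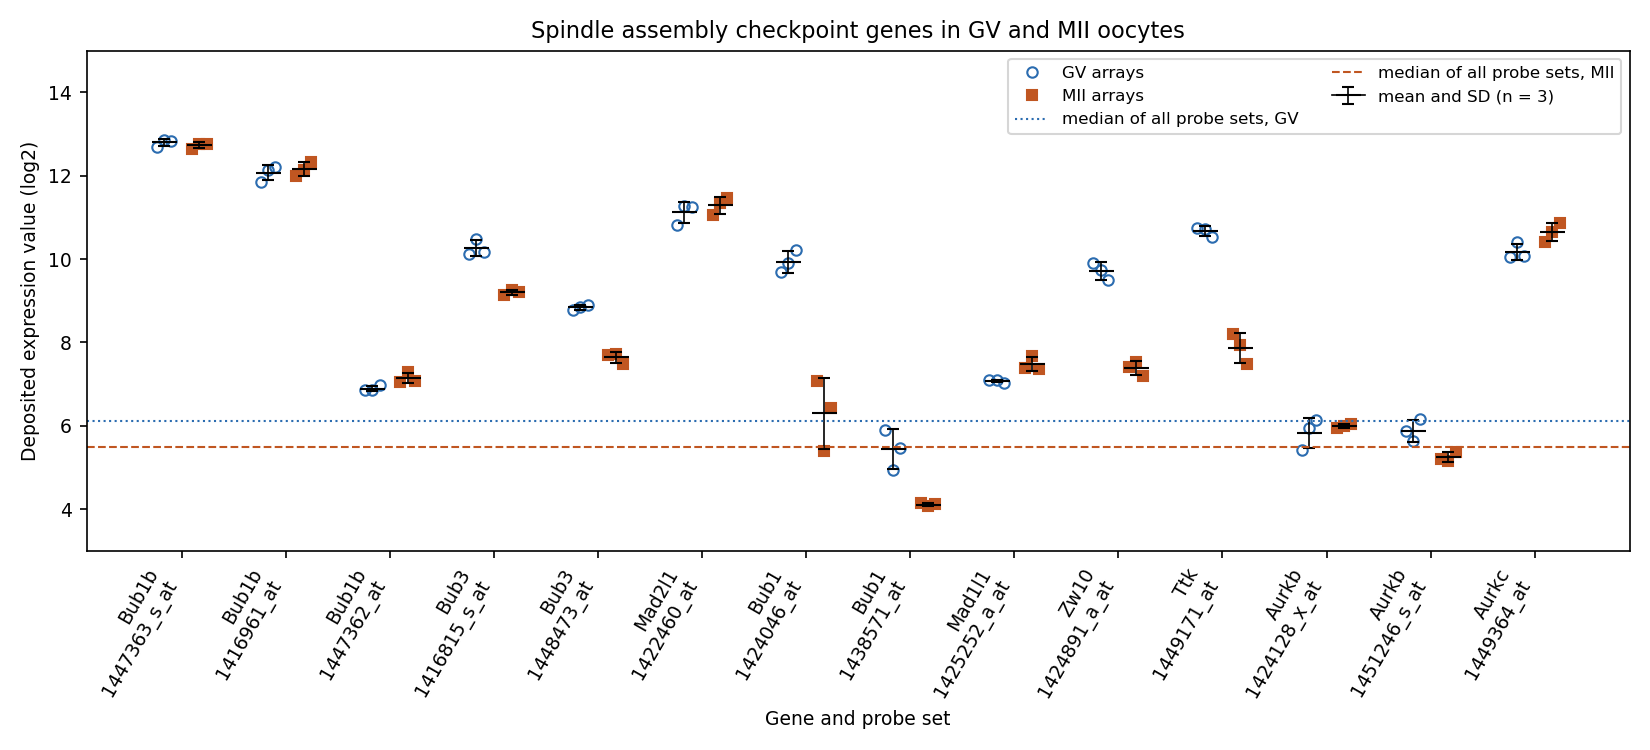
Each point is the deposited log2 value of a probe set (x axis) on 1 array, open circles for the 3 GV and squares for the 3 MII replicates, with the mean and SD in black and the median of all probe sets as a line for each stage. The stages separate widely for Bub1 1424046_at, Zw10 and Ttk and overlap for Mad2l1 and the brightest probe sets of Bub1b; the small upward steps of Mad1l1 and Aurkc vanish or turn under the scalings on the control features.

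As deposited, the messages of the proteins that build the signal at the kinetochore went different ways. Bub1 encodes the kinase that marks centromeric chromatin for shugoshin and provides a platform for MAD1. Its brighter probe set (1424046_at) fell from 9.68, 9.90 and 10.21 in GV to 7.07, 5.40 and 6.43 in MII. No MII value came near the GV values, and the MII replicates were more scattered, with means of 9.93 ± 0.26 and 6.30 ± 0.85 (SD, n = 3). MII replicate 2 was lowest and lay below the median of its array. The difference was -3.63 ± 0.35 (SE; limma, adjusted p = 1.3e-05), lower than all but 1.62% of the tested probe sets, and it ranged from -4.02 to -3.18 when 1 replicate was left out.

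The other Bub1 probe set (1438571_at) was dim, at 5.90, 4.95 and 5.48 in GV and 4.14, 4.07 and 4.12 in MII, below the array median on all 6 arrays. It also fell, by 1.33 ± 0.22 on the log2 scale (limma, adjusted p = 0.00058). Within arrays, the brighter probe set changed by -2.30 ± 0.43 relative to the dimmer (limma, adjusted p = 0.0024), a gap that was not called without moderation of the variance (adjusted p = 0.057). With no measure of background here, the size of a fall that ends this low is not well set.

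Zw10 encodes the subunit that joins ROD and Zwilch in the RZZ complex of the outer kinetochore. Its probe set (1424891_a_at) read 9.91, 9.73 and 9.49 in GV and 7.42, 7.53 and 7.20 in MII. The stages stood about 2 log2 units apart, with little scatter in either. The difference was -2.32 ± 0.16 (limma, adjusted p = 1.2e-06) and lay between -3.20 and -1.70 over all other settings.

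Mad1l1 encodes MAD1, the kinetochore anchor and template for MAD2. Its probe set (1425252_a_at) was at 7.10, 7.09 and 7.04 in GV and 7.39, 7.67 and 7.37 in MII. Every MII value exceeded every GV value, but the step was small, at 0.40 ± 0.14 or 1.32-fold (limma, adjusted p = 0.040). The call was lost when any of the 6 replicates was left out (adjusted p from 0.052 to 0.15, differences of 0.30 to 0.46). It was also lost with equal hybridization controls (-0.0042) and equal poly-A controls (-0.47).

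The messages of the kinases also went different ways as deposited. Ttk encodes MPS1, the kinase at the head of the checkpoint. Its probe set (1449171_at) read 10.75, 10.73 and 10.53 in GV and 8.20, 7.93 and 7.49 in MII. The stages were far apart, and even the highest MII value lay more than 2 log2 units below the lowest GV value. The difference was -2.79 ± 0.19 (limma, adjusted p = 9.7e-07), lower than all but 4.13% of the tested probe sets. The intervals of Ttk (-3.21 to -2.38) and of the brighter Bub1 probe set (-4.41 to -2.85) overlapped, as did those of Ttk and Zw10 (-2.68 to -1.97), while those of Bub1 and Zw10 did not; the differences between these falls were not tested.

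Aurkc encodes Aurora C, which replaces much of Aurora B's role in the chromosomal passenger complex of oocytes. Its probe set (1449364_at) was at 10.04, 10.40 and 10.07 in GV and 10.41, 10.66 and 10.86 in MII. The highest GV value, in replicate 2, all but met the lowest MII value. The difference was 0.47 ± 0.17 or 1.39-fold (limma, adjusted p = 0.042). It was not called without GV replicate 1 or 3 or without MII replicate 2 or 3 (adjusted p from 0.098 to 0.15, differences of 0.36 to 0.46), nor with no moderation (adjusted p = 0.11) or with equal hybridization controls (0.07), and it was -0.40 with equal poly-A controls.

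Aurkb encodes Aurora B, the passenger kinase of somatic mitosis. Its probe sets were dim and disagreed. Probe set 1424128_x_at read 5.42, 5.94 and 6.13 in GV and 5.95, 6.0 and 6.04 in MII, with overlap and a difference of 0.17 ± 0.19 (95% interval -0.25 to 0.58), which was -0.04 without GV replicate 1. It was called higher with equal medians (0.79) and after quantile normalization (0.80), and lower with equal poly-A controls (-0.70). Probe set 1451246_s_at, from the same accession, read 5.87, 5.63 and 6.16 in GV and 5.20, 5.16 and 5.38 in MII, without overlap. The latter was called lower at -0.64 ± 0.16 (limma, adjusted p = 0.0099), but was at -0.01 with equal medians and -0.04 after quantile normalization, neither called, and it lost its call with no moderation (adjusted p = 0.055).

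The 2 Aurkb probe sets changed unequally within arrays, by 0.81 ± 0.22 (limma, adjusted p = 0.019). That call was lost without GV replicate 1 (adjusted p = 0.053), without MII replicate 2 (adjusted p = 0.058) and with no moderation (adjusted p = 0.069). Each of them was below the array median on 2 GV arrays, and 1451246_s_at was below it on all 3 MII arrays. The types _x_at and _s_at can match more than 1 transcript, as can 1447363_s_at of Bub1b and 1416815_s_at of Bub3. Whether Aurkb and Aurkc differed in their change was not tested.

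Other genes of the pathway were taken from a list of 28 compiled by role, of which 26 had a probe set of their own (all but Nsl1 and Ccnb1, not analysed here). By the brightest probe set 10 fell and 2 rose, beside 37.8% and 10.5% of all genes, and the median difference was -0.07 against -0.20 for all genes. The same shares of all genes stand beside the counts by role below, which are a description only. With equal medians the falls and rises were 7 and 14, with quantile-normalized arrays 7 and 12, with equal hybridization controls 10 and 0, and with equal poly-A controls 21 and 0 (limma, with 0 rises at an unadjusted p under 0.05 in the last 2). Beside these, 12016 of all 21646 probe sets rose with equal medians and 18380 fell with equal poly-A controls.

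Of the 3 partners of Aurora B and C in the chromosomal passenger complex 2 fell. Birc5, which encodes survivin, the subunit that docks the complex on centromeric histone H3, was at 9.98, 9.98 and 9.89 in GV and 8.08, 8.06 and 8.66 in MII. It fell by 1.68 ± 0.18 on the log2 scale (limma, adjusted p = 2.5e-05). The scaffold gene Incenp fell by 1.33 ± 0.13, and Cdca8 (borealin) differed by 0.05 ± 0.14, called higher with equal medians and lower with equal poly-A controls. These last 2 genes were named after their values were seen. Another Incenp probe set was called lower as well (-1.66) and a dim one was at 0.07 and not called.

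In the kinetochore scaffold that carries the checkpoint proteins, 3 of 8 measured genes fell and 1 rose. This balance turned to 2 falls and 4 rises both with equal medians and after quantile normalization, and was 6 falls and 0 rises with equal poly-A controls (limma; 0 rises unadjusted). Mis12, one of the falls as deposited, was at 0.02 after quantile normalization. Knl1, named after its values were seen, was dim and not called by its brightest probe set (0.59). Its other probe set was called lower as deposited (-0.89, limma, adjusted p = 0.00079) but not with equal medians (-0.27). Spc24, a subunit of the NDC80 complex that grips microtubules, was at 7.40, 7.86 and 7.42 in GV and 5.85, 5.53 and 5.71 in MII, a difference of -1.86 ± 0.17 (limma, adjusted p = 8.4e-06). Ndc80 itself, the microtubule-binding subunit, rose by 0.50 ± 0.16, from 8.46, 8.19 and 7.95 to 8.58, 8.69 and 8.83 (limma, adjusted p = 0.030). That rise was not called when GV replicate 2, GV replicate 3, MII replicate 2 or MII replicate 3 was left out (0.37 to 0.50) and under both control scalings (0.09 and -0.37).

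Both called genes of the group around ZW10 fell, and the third, Kntc1 (ROD), did not pass the test. Kntc1 was called higher with equal medians (0.74) and after quantile normalization (0.57), and lower with equal poly-A controls (-0.76). Zwilch, the partner of ZW10 in the RZZ complex, read 8.35, 8.53 and 8.22 in GV and 7.12, 4.55 and 5.04 in MII. MII replicate 1 stood well above the other MII values, and it was also the highest of the MII values of Bub1 1424046_at and Ttk. MII replicate 1 was likewise the highest for Spc24 and the brightest Nek2 probe set. This did not hold for every gene that fell: it was the lowest for Bub3 1416815_s_at, and Zw10 was highest in MII replicate 2. The Zwilch difference was -2.79 ± 0.52 (limma, adjusted p = 0.0015), and -3.57 without MII replicate 1. With no moderation of the variance it was not called (adjusted p = 0.064).

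Upstream kinases and shugoshins gave 3 falls and 0 rises among 5 genes (limma, with 0 rises at an unadjusted p under 0.05). Sgo1, named after its values were seen, was not called by its brightest probe set (-0.29). Its other probe set was called lower as deposited (-0.94, limma, adjusted p = 0.0028). Nek2, a kinase of centrosomes and kinetochores, showed the largest fall of this group, from 9.97, 9.83 and 9.97 to 7.52, 7.06 and 7.12, a difference of -2.69 ± 0.16 (limma, adjusted p = 4e-07). A dim Nek2 probe set below the array median in both stages was called higher (0.83; -0.04 and not called with equal poly-A controls), the only case among 10 pathway genes with several probe sets in which calls opposed each other. With equal medians or after quantile normalization this group had 1 fall and 1 rise.

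Genes that release the checkpoint, or are its downstream targets, gave 1 rise and 0 falls among 7 (limma; 0 falls and 3 rises at an unadjusted p under 0.05). Ppp1cc, a catalytic subunit of protein phosphatase 1, which removes the phosphates set by TTK, rose by 0.65 ± 0.14, from 9.69, 9.51 and 9.42 to 10.13, 10.26 and 10.16 (limma, adjusted p = 0.0032; 0.24 with equal hybridization controls and -0.23 with equal poly-A controls, neither called). Pttg1, which encodes securin, a substrate of the anaphase promoting complex, differed by 0.31 ± 0.14 in its brightest probe set and was not called, but its other probe set was called higher at 0.99 ± 0.22 (limma, adjusted p = 0.0041; not called under either control scaling, at 0.58 and 0.11). Cdc20, the activator that the checkpoint complex captures, was named after its values were seen and differed by 0.38 ± 0.16 (limma, adjusted p = 0.079). With equal medians all 7 of these genes were called higher, beside 12016 of all 21646 probe sets. With equal poly-A controls 4 of the 7 were called lower, beside 18380 of all probe sets.

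**Figure D4:**
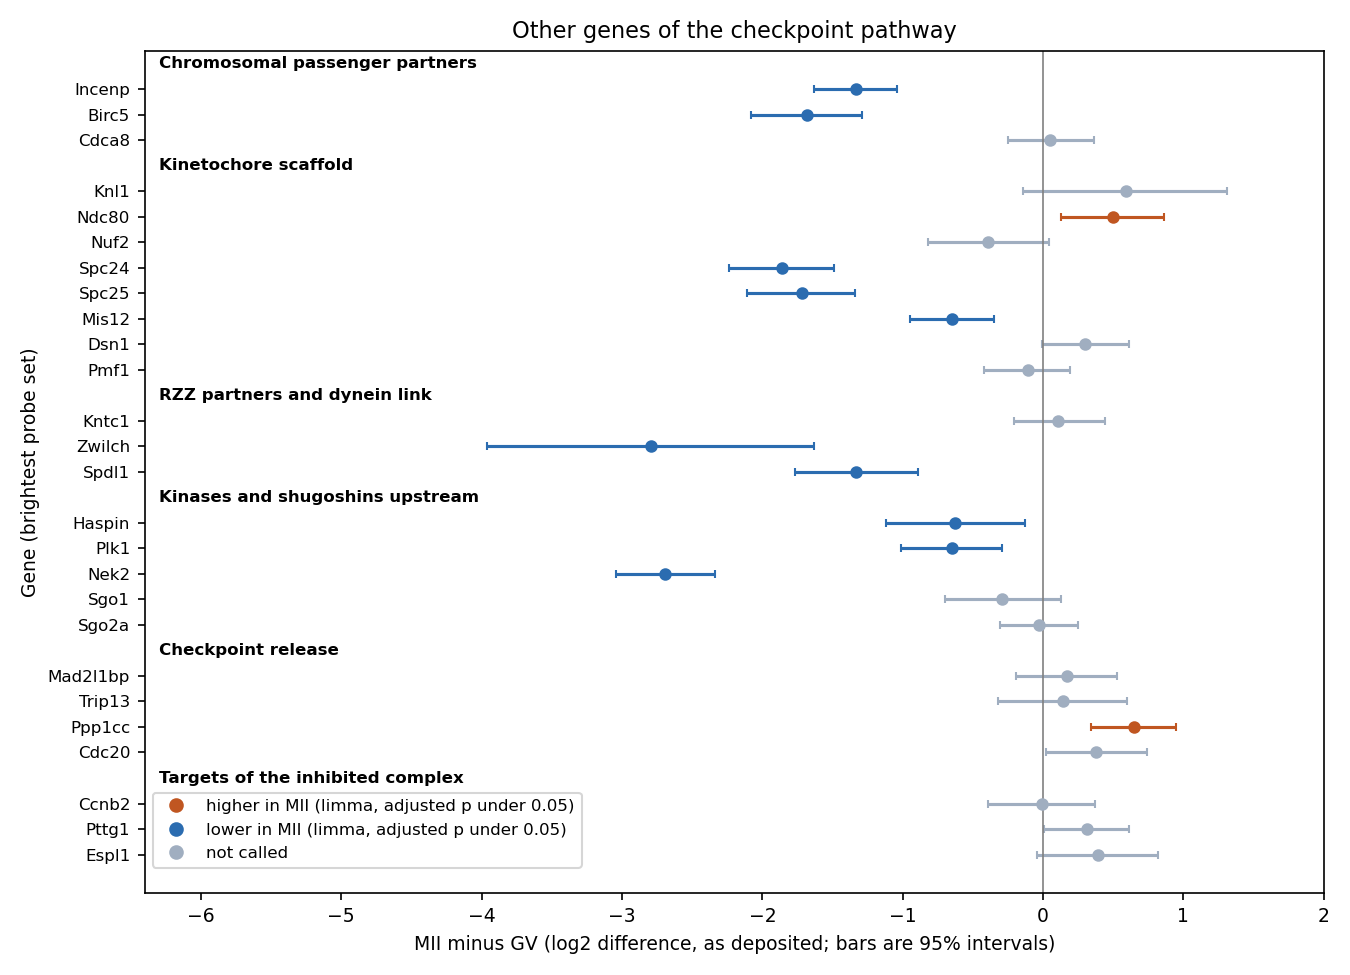
Log2 differences, MII minus GV as deposited (x axis), are drawn for the 26 other pathway genes (y axis, brightest probe set, grouped by role) with 95% intervals from limma. Blue points are called lower and orange points higher; Zwilch and Nek2 fell most, and the rises of Ndc80 and Ppp1cc turn below 0 with equal poly-A controls.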

How the data were processed

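The values are those the authors deposited on the log2 scale; RMA and the R package affy are named in the submitters' processing notes, with no version or order. All 6 arrays hold the same set of 7077 distinct values, and how the 21702 probe sets were selected is not given in the sources. After 56 control features were set aside, 21646 probe sets were tested without an intensity filter. Symbols came from the array's annotation: 19078 probe sets had 1 symbol, 550 several and 2018 none. Names were checked against a RefSeq gene table.

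The stages were compared with limma 3.58.1 under R 4.3.3 (group only, 2-sided, 5.78 prior degrees of freedom), with Benjamini-Hochberg adjustment over all probe sets and a threshold of 0.05. The 95% intervals are not adjusted. Differences between probe sets of 1 gene were tested in the same way over 12070 pairs. The alternatives were 4 scalings, a filter on dim probe sets, no moderation, a replicate block and leaving out each replicate. On simulated data of 21646 probe sets, this comparison recovered 54.0% of changes of 2-fold and 97.0% of those of 4-fold, with 5.03% false calls.

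The genes and lists were chosen with earlier results of these data known. All checkpoint gene probe sets were named. In each role of the list, the called genes with the largest rise and fall were named, or the brightest gene where none was called. Promoters were read from a RefSeq table of GRCm38.p6.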

Additional observations from a re-analysis of the deposited data

How the results depend on the processing

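Over all probe sets, 12016 were called higher and 4306 lower with array medians made equal, 7538 and 4794 after quantile normalization, 104 higher with hybridization controls made equal, 65 higher and 18380 lower with poly-A controls made equal, and 1279 higher with no moderation (1547 to 2127 higher when 1 replicate was left out, the lowest without GV replicate 2). In the same settings the checkpoint gene probe sets called higher numbered 7, 4, 0, 0 and 1 by limma (0 at an unadjusted p under 0.05 under both control scalings), and 0 to 1 without 1 replicate (1 or 2 unadjusted). Those called lower numbered 12 with poly-A controls made equal and 7 without any 1 replicate. For the other pathway genes the rises were 14, 12, 0, 0 and 1, and 1 to 3 without 1 replicate (1 without MII replicate 2 or 3), and the falls 21 with poly-A controls made equal. Unequal pairs among checkpoint probe sets numbered 4 after quantile normalization, 0 with no moderation (3 unadjusted, limma's fit) and 1 to 2 without 1 replicate.

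Signs turned for Bub1b 1447363_s_at (0.54 with equal medians, 0.15 after quantile normalization), and with hybridization and poly-A controls made equal for Bub1b 1416961_at (-0.32, -0.79), Bub1b 1447362_at (-0.15, -0.62), Mad2l1 (-0.23, -0.70), Mad1l1 (-0.0042, -0.47) and Aurkb 1424128_x_at (-0.24, -0.70). Aurkc turned with poly-A controls alone (-0.40). Without 1 replicate, Bub1b 1416961_at ranged from -0.02 to 0.16 and Aurkb 1424128_x_at from -0.04 to 0.32. Equal medians and the 2 control scalings shift all probe sets alike (by 0.62, -0.40 and -0.87), so a smaller difference of the other sign must turn. The cause of the other turns was not tested. The probe sets of Bub1, Bub3, Ttk and Zw10 kept their call in each of the 12 or 13 settings that gave them a value.

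Replicate numbers are shared between stages, although number 1 is carried by no title and was given in accession order, but same-numbered samples deviated together at correlations of only 0.09, 0.03 and 0.03, and GV replicate 1 correlated best with MII replicate 2 (0.17). With the replicate number as a block, 1 checkpoint probe set was called higher, since Mad1l1 was not called (0.40, adjusted p = 0.055, limma). Leaving the dim probe sets out kept 12 of the 14 checkpoint probe sets. Where both stages lie near or below the array median, as for Aurkb and Bub1 1438571_at, the signal over background limits what a difference can show.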
